A study of Homo sapiens with 9 samples.

Results

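The spindle-shaped cells that grew around colonies of transduced A549 cells, called OSK-A549-SN, were compared with the parental A549 cells in gene expression. A549 is an established human line from a lung adenocarcinoma. The comparison used 6 of the 9 arrays of the series, chosen by sample title, with 3 arrays of parental A549 (passages P98, P98 and P99) and 3 of OSK-A549-SN (passages P106, P107 and P106). The OSK-A549-SN cells carried retroviral OCT3/4, SOX2 and KLF4 (OSK), and the parental cells carried no vector. The colonies were picked and cultured on, the cells around them were collected as the fraction that trypsin released first, and the cells that stayed longer, OSK-A549-Colony, made up the other 3 arrays. The labels call OSK-A549-SN differentiated. Arrays of cells transduced with a control vector are not analysed here. Transduction, colony picking, sorting by detachment and the later passage all distinguished OSK-A549-SN from parental A549 and cannot be told apart in this comparison. The comparison addressed how far the spindle-shaped progeny of the colonies had moved from the line they came from.

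OCT3/4, SOX2 and KLF4 are transcription factors of early embryonic cells that, expressed together, can loosen the identity of a differentiated cell. Carcinoma cells that take on a spindle shape often exchange the junctions and cadherin of an epithelium for the filaments and adhesion proteins of mesenchymal cells, a change called the epithelial-mesenchymal transition (EMT). A549 keeps features of a glandular lung epithelium, and also expresses many genes best known from liver, such as fibrinogen.

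Each value is a relative level, the log2 intensity of a probe minus the 75th percentile of its array, so that 0 is the level of that percentile. A probe counted as detected on an array where the scanner software marked its signal as significant and well above background. It was tested with limma where it was detected on at least 1 of the 6 arrays, and a call needed a fold change over 2 and a p under 0.05 after Benjamini-Hochberg adjustment. Between 26055 and 29315 of 50599 probes were detected per array. Pairs of arrays were compared by Pearson's r across the 24182 probes that every array detected, and r was at least 0.983 for pairs of parental arrays and at least 0.988 for pairs of OSK-A549-SN arrays, and it lay between 0.971 and 0.986 for pairs across the groups. Replicate 3 of OSK-A549-SN was alone on its slide. By the methods of the study the RNA came from 3 separate transduction experiments, and the labels do not say which arrays shared one.

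OSK-A549-SN differed from parental A549 in 498 of 32218 tested probes (1.55% of them), of which 227 were higher (0.705%) and 271 lower (0.841%). The adjusted p alone was passed by 586 probes (1.82%), and an unadjusted p under 0.05 with a fold change over 2 by 1879 (5.83%). Among the largest increases of genes detected on all 6 arrays were the gut and brain peptide gene CCK, the ion channel gene KCNMA1 and the neuropeptide gene GAL. Among the largest decreases of such genes were ASGR1, which encodes a subunit of the asialoglycoprotein receptor of hepatocytes, the anticoagulant protein gene PROC and the plasma protein gene AHSG. The called probes carried 315 gene names, 146 higher and 169 lower, and 151 called probes had no name. The median size of the change was 1.79 on the log2 scale for the probes called higher and 1.41 for those called lower, and the arrays of the 2 groups did not overlap in any of the 498. Over all tested probes, OSK-A549-SN lay entirely above parental A549 in 16.8% and entirely below it in 15.2%.

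The number of calls depended on the arrays. Without OSK-A549-SN replicate 3, limma called 190 probes, 141 higher and 49 lower, and 124 of these were among the 498. No probe was called when OSK-A549-SN replicate 1 or 2 was left out, and 44, 2 and 158 probes were called when parental A549 replicate 1, 2 or 3 was left out. With replicate 1 or 2 of OSK-A549-SN left out the smallest adjusted p was 0.0649 or 0.0695. Between 485 and 498 of the 498 probes were tested in each of these fits. None of those tested changed sign, and none could, because the arrays of the 2 groups did not overlap in any of the 498. The comparison without replicate 3 of OSK-A549-SN is also the comparison within 1 slide. Of the 42 genes called in any of the gene lists below and tested without it, 9 were also called (ASGR1, AHSG, RNASE4, APOH, F7, FGL1, SERPINA1, ERBB3 and PADI3) and 33 were not. A level measured in bulk RNA cannot tell fewer cells that express a gene from less RNA of it in each cell.

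**Figure D1:**
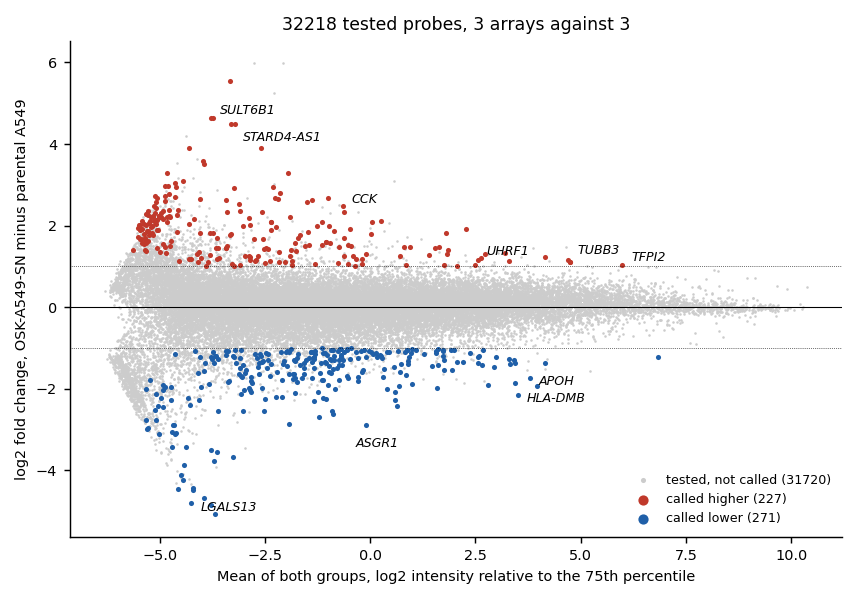
Each point is 1 of the 32218 tested probes. The horizontal axis is the mean relative level of both groups (log2), the vertical axis the log2 fold change of OSK-A549-SN minus parental A549, the dotted lines mark 1 and -1, and the coloured points are the 227 probes called higher and the 271 called lower. Many of the called probes with the largest changes lie at low levels, as SULT6B1 and LGALS13 do, and ASGR1, CCK, APOH and TFPI2 lie further to the right.

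The transduced genes were examined first. KLF4 had a relative level of -2.34, -2.48 and -2.28 on the parental arrays and of 1.08, 0.55 and -1.33 on OSK-A549-SN replicates 1, 2 and 3. All 3 OSK-A549-SN arrays were above all parental arrays, and replicate 3 was far below the other replicates. The log2 fold change was 2.47 (SE 0.61) with an adjusted p of 0.10 from limma, which missed the threshold, and it was 3.18 with an adjusted p of 0.0238 without replicate 3. POU5F1, the gene of OCT3/4, had 2 probes. Probe A_24_P144601 gave -1.75, -2.45 and -2.15 in parental A549 and 1.73, 0.80 and -1.97 in OSK-A549-SN (log2 fold change 2.30, SE 0.93, adjusted p = 0.228, or 3.38 with an adjusted p of 0.0472 without replicate 3), and A_23_P59138 gave a log2 fold change of -0.32 (SE 0.24, adjusted p = 0.480). Replicate 3 of OSK-A549-SN lay within the parental range at the first of these probes, while replicates 1 and 2 lay above it. SOX2 spread from -4.25 to -1.47 over the parental arrays and from -2.50 to -1.66 over OSK-A549-SN, and the groups overlapped (log2 fold change 0.71, SE 0.70, adjusted p = 0.583). The probes do not separate endogenous from retroviral RNA by their annotation.

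Of 8 tested pluripotency genes none was called, and 2 passed an unadjusted p under 0.05 with a fold change over 2, NANOG and SALL4, where 5.57% of all tested genes, taken with 1 probe each, did. NANOG, a core factor of embryonic stem cells, was not detected on any parental array and was detected on all 3 OSK-A549-SN arrays at -3.72, -3.52 and -4.20. Set against the detection floor of the parental arrays this is at least 1.31-fold higher (adjusted p = 0.0705 from limma). Such a bound compares the mean of the brighter group with a mean in which each dim array takes the higher of its own value and the lowest level among its detected probes. SALL4, another embryonic stem cell factor, was at 0.28, 0.72 and 0.67 in parental A549 and at -0.45, -0.40 and -1.05 in OSK-A549-SN (adjusted p = 0.0686). Of the stem cell markers and drug pumps, 1 of 12 tested was called, against 1.63% of all tested genes in either direction. ABCB1, the multidrug efflux pump, fell from -0.06, -0.06 and -0.47 to -1.19, -1.18 and -1.31, by 1.03 on the log2 scale (SE 0.16, adjusted p = 0.0462 from limma), and its second probe fell by 1.29. CD44 and ABCG2 were not called, with log2 fold changes of 0.29 and -0.10 at their brighter probes, and PROM1 was not detected on any of the 6 arrays.

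The spindle label was set against markers of epithelial and mesenchymal cells. CDH1, which encodes E-cadherin of adherens junctions, was at 3.26, 3.26 and 3.75 in parental A549 and at 2.44, 2.71 and 2.62 in OSK-A549-SN. Every OSK-A549-SN array was below every parental array, by 1.78-fold between the means, and the adjusted p of 0.0860 from limma missed the threshold. Of 35 tested junction and epithelial genes, 1 was called lower and none higher, against 0.876% and 0.757% of the 16774 tested genes taken with 1 probe each. The median log2 fold change of these 35 was -0.25, and 24 were below 0, where the median over all tested genes was 0.09. MARVELD3, a tight junction protein, fell from -3.19, -3.13 and -3.20 to -4.07, -4.21 and -4.53 (adjusted p = 0.0428). It was detected on 1 of 3 OSK-A549-SN arrays, so the size of its decrease is uncertain and no fold change is given. CLDN3, CGN, MARVELD2, TJP3, OCLN, JUP and DSC2, all of tight junctions or desmosomes, had log2 fold changes between -1.02 and -0.55 with no overlap between the groups, and none was called. In all, 15 of the 35 lay below without overlap and 5 lay above, PKP3, TJP1, PKP2, GRHL1 and ESRP1, with log2 fold changes of 0.59, 0.32, 0.20, 0.74 and 0.43, none of them called, where 2430 of the 16774 tested genes lay below and 3320 above. EPCAM overlapped, at 3.15, 2.43 and 1.72 against 2.57, 1.59 and 0.98.

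On the mesenchymal side, 1 of 21 markers was called, against 1.63% of all tested genes in either direction. ITGB3, the beta subunit of the vitronectin receptor, was not detected in parental A549 and was detected on 2 OSK-A549-SN arrays, at levels of -3.85, -4.64 and -4.27 (adjusted p = 0.0368 from limma), so that no fold change is given. The median of the 21 was 0.31, and 15 were above 0, where 59.1% of all tested genes were. OSK-A549-SN lay entirely above in 8 and entirely below in 2, against 3320 and 2430 of the 16774 tested genes. VIM, the vimentin filament gene, was at 7.27, 7.23 and 7.71 in parental A549 and at 7.81, 7.95 and 7.90 in OSK-A549-SN. The OSK-A549-SN arrays lay just above the parental arrays (log2 fold change 0.49, adjusted p = 0.186). CDH2, which encodes N-cadherin, gave a log2 fold change of 0.69 (adjusted p = 0.0985) without overlap at its brighter probe. FN1, the fibronectin gene, gave the opposite sign, at -1.28, -1.09 and -0.86 in parental A549 and -2.87, -1.95 and -2.43 in OSK-A549-SN (log2 fold change -1.33, adjusted p = 0.0701). ACTA2, the smooth muscle actin gene, gave a log2 fold change of -0.49 and was not called.

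None of the 8 tested EMT transcription factors was called by the probe used for the list, and none passed an unadjusted p under 0.05 with a fold change over 2. ZEB1, a repressor of E-cadherin, was at 1.08, 1.23 and 0.00 in parental A549 and at 1.72, 1.35 and 1.40 in OSK-A549-SN, and ZEB2 was not detected on any of the 6 arrays. The 3 probes of TWIST2 disagreed. Its brightest probe gave -0.66 (adjusted p = 0.177), while probe A_19_P00322911 was called higher with 1.42 (SE 0.18, adjusted p = 0.0374), from -3.55, -3.10 and -3.04 to -1.88, -1.67 and -1.88.

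Markers of A549 itself were also read. KRT7, KRT8, KRT18 and KRT19, keratins of simple epithelia, were detected on all 6 arrays with log2 fold changes between -0.08 and 0.24 at their brightest probes, and AKR1B10, AKR1C1, ALDH1A1 and NQO1, which are high in this line, were detected on all 6 with log2 fold changes between -0.41 and 0.33 at theirs. None of these was called. CDKN2A, whose locus is deleted in A549, was detected on all 6 arrays by probe A_23_P43490 and on none by A_33_P3411628. Among markers of other cells, 6 endothelial, 6 fibroblast and 7 leukocyte genes were tested and none was called, and PECAM1, PDGFRA, PDGFRB and CD163 were not detected on any of the 6 arrays. One of these 19, CD68, passed an unadjusted p under 0.05 with a fold change over 2, against 5.57% of all tested genes.

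**Figure D2:**
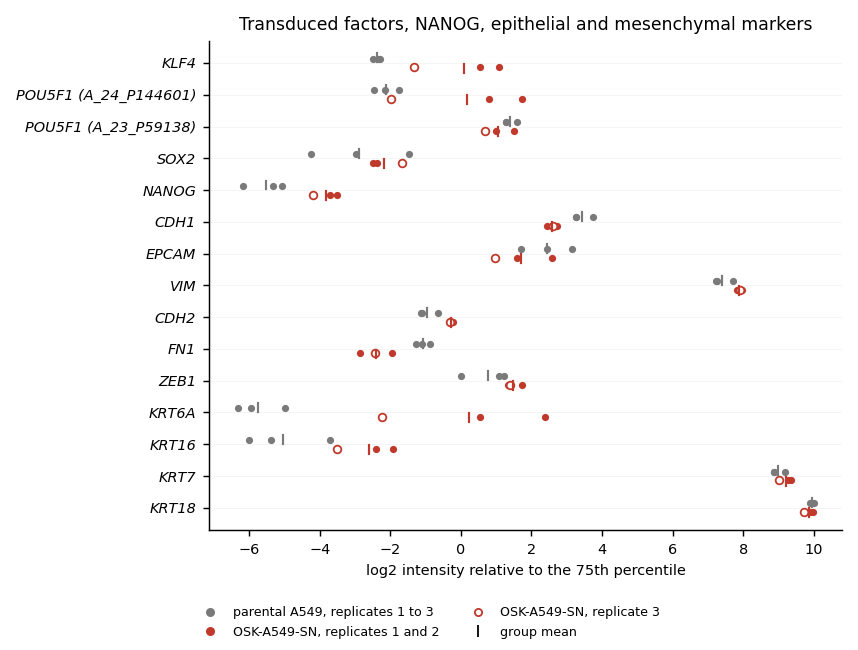
Relative level (log2 intensity minus the 75th percentile of the array) of the transduced factors, NANOG and markers of epithelial and mesenchymal cells. Grey points are the 3 parental arrays, filled red points OSK-A549-SN replicates 1 and 2, the open red point replicate 3, and short vertical lines the group means. KLF4, the first POU5F1 probe and KRT6A spread widely over the OSK-A549-SN arrays with replicate 3 lowest, while CDH1, VIM and CDH2 formed tight groups without overlap.

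The 10 largest increases among named genes detected on all 6 arrays lay between 2.08 and 2.68 on the log2 scale. MARCHF4, a membrane-bound ubiquitin ligase, rose from -4.13, -3.0 and -3.66 to -0.58, -1.05 and -1.11, by 6.42-fold (adjusted p = 0.0321 from limma). LYPD1, a membrane-anchored protein of the Ly6 family, rose from -2.60, -2.73 and -1.65 to 0.47, 0.37 and 0.20, by 6.39-fold (adjusted p = 0.0307). Both genes were separated from the parental arrays by more than the whole spread within either group. CCK, the cholecystokinin gene, rose from -1.59, -1.87 and -2.22 to 0.55, 0.66 and 0.53, by 5.56-fold (SE 0.19 on the log2 scale, adjusted p = 0.0200), and GAL, the galanin gene, from -1.79, -2.33 and -2.42 to 0.18, 0.05 and -0.51, by 4.24-fold (adjusted p = 0.0342). KCNMA1, the pore-forming subunit of a calcium-activated potassium channel, rose by 5.05-fold at its brightest probe, and 2 of its 3 other probes were called in the same direction. RHCG, an ammonium transporter, rose by 4.24-fold and ACTL8, an actin-like protein known from testis, by 4.24-fold.

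The rest of the 10 were non-coding RNAs. LINC00707 rose from -2.87, -2.49 and -2.75 to 0.67, -0.21 and -0.69 (log2 fold change 2.63, adjusted p = 0.0399 from limma) and LINC00941 by 2.22, and a second probe was called higher for each. The brightest probe of LINC00941, A_33_P3518572, gave 0.40 with overlapping groups (adjusted p = 0.320). SCARNA14, a small Cajal body RNA of the kind that guides modification of spliceosomal RNA, rose from -0.72, -1.06 and -0.58 to 1.27, 1.73 and 0.96. This gene was not alone in its class. Of 256 tested snoRNA probes, 7 were called higher and none lower, and of 23 probes annotated as other ncRNA, 3 were called higher and none lower, against 0.705% of all probes called higher. Among them SNORA44 rose from -1.64, -1.80 and -1.80 to -0.12, -0.04 and -0.33, and SNORA48 from 2.91, 2.80 and 2.49 to 3.90, 4.02 and 3.68. These classes were looked at after the values were seen.

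Of the 10 increases, 6 were called without OSK-A549-SN replicate 3, and the log2 fold changes of the 10 without it lay between 2.13 and 2.93. MARCHF4, LYPD1, LINC00941 and ACTL8 then missed the threshold, with adjusted p-values of 0.0654, 0.0634, 0.0557 and 0.0634. Across all 227 probes called higher, replicate 3 was the lowest of the 3 OSK-A549-SN arrays in 141 (62.1%), against 45.7% of all tested probes. Across the 271 called lower it was the highest in 35.8%, against 34.2% of all tested probes. OSK-A549-Colony replicate 3, of the same passage as OSK-A549-SN replicate 3 (P106), was hybridised on the slide of the parental arrays. It was the lowest of the 3 OSK-A549-Colony arrays in 129 of the same 227 probes (56.8%, against 32.6% of all tested probes) and in 9 of the 10 increases. KLF4 was at 1.5, 0.33 and -0.61 on the OSK-A549-Colony arrays, and KRT6A at 3.08, -0.62 and -3.13.

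A further set of genes was detected on all OSK-A549-SN arrays and on no parental array. STARD4-AS1, a non-coding RNA, reached -0.58, -1.09 and -1.20 and was at least 9.45-fold higher, and NPTX1, a pentraxin of neurons, reached -0.10, -1.31 and -1.76 and was at least 8.83-fold higher. CPA4, a carboxypeptidase, was at least 6.90-fold higher at -0.02, -1.26 and -2.95, SULT6B1, a sulfotransferase, at least 6.69-fold higher at -0.68, -1.68 and -2.0, and PADI3 at least 5.40-fold higher at -2.20, -1.82 and -1.28. In the first 4 of these, replicate 1 was the highest and replicate 3 the lowest OSK-A549-SN array, and in PADI3 the order was the opposite. Adjusted p-values from limma for the 5 lay between 0.0200 and 0.0462, and STARD4-AS1 (0.0634) and NPTX1 (0.0843) missed the threshold without replicate 3.

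PADI3 encodes a peptidylarginine deiminase, an enzyme that converts arginine to citrulline in proteins of hair and skin. PADI2, its neighbour in the same gene cluster, rose from -4.45, -3.71 and -3.86 to -1.54, -1.96 and -2.54 (log2 fold change 1.99, SE 0.32, adjusted p = 0.0479), while its second probe gave 0.64 and was not called. PADI1 was at -1.67, -1.46 and -1.38 against -0.58, -0.56 and -0.70, without overlap and short of a 2-fold change. A list of cornified envelope and skin barrier genes was therefore drawn up after these values were seen, and its counts are a description only. Of its 25 tested members, 5 were called higher, PADI2, PADI3, SBSN, SPRR3 and LY6K, against 0.757% of all genes, and none lower. PADI2 and PADI3 had prompted the list. Without replicate 3 of OSK-A549-SN only PADI3 was called, and with normexp background correction only LY6K and SBSN. The median was 0.58 and fell to 0.26 without replicate 3. Of the 25, 7 were below 0, among them DMKN (-0.94) and CNFN (-0.62). OSK-A549-SN lay entirely above in 9 and entirely below in 4, against 3320 and 2430 of the 16774 tested genes. SBSN, the suprabasin gene of upper epidermis, rose from -3.33, -4.29 and -2.97 to -0.49, -0.81 and -0.90. Of 13 tested keratins none was called, and 4 passed an unadjusted p under 0.05 with a fitted increase over 2-fold, KRT6A, KRT14, KRT16 and KRT17, all of stratified epithelia, where 2.63% of all tested genes did. None of these 4 was detected on a parental array, so the fitted sizes are not measured folds. They were tested only because OSK-A549-SN arrays detected them, so nothing is read from their count against that share. Against the detection floor KRT16 was at least 2.81-fold higher, KRT14 lay at the floor itself (a bound of 1.00-fold), and KRT17 was detected on 2 OSK-A549-SN arrays with overlap between the groups. KRT4 passed the same criterion in the other direction, with a log2 fold change of -1.33 (adjusted p = 0.0587 from limma). KRT6A was detected on no parental array and was at 2.38, 0.55 and -2.25 in OSK-A549-SN, at least 21.5-fold higher, with an adjusted p of 0.0665 from limma and of 0.0366 without replicate 3. Probes of keratin genes and their pseudogenes may share targets.

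**Figure D3:**
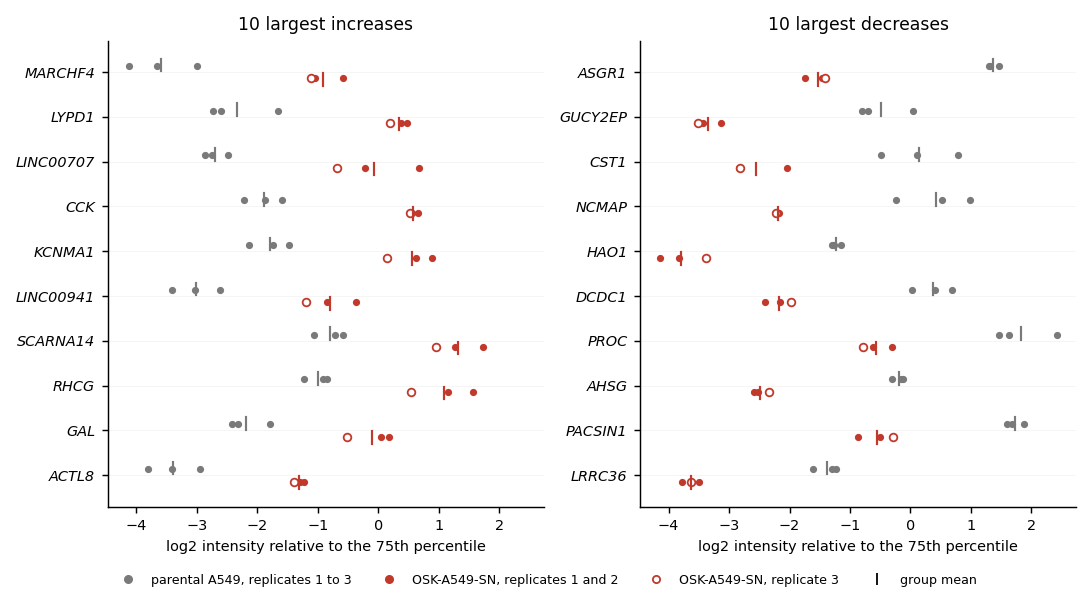
Relative levels on each array of the 10 largest increases (left) and the 10 largest decreases (right) among named genes detected on all 6 arrays, with grey points for parental A549, filled red for OSK-A549-SN replicates 1 and 2, open red for replicate 3 and short lines for group means. No gene shows overlap between the groups, and replicate 3 is the lowest OSK-A549-SN array for all 10 increases.

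The largest decreases among genes detected on all 6 arrays included that of ASGR1, which fell from 1.46, 1.31 and 1.30 to -1.74, -1.46 and -1.41, by 2.90 on the log2 scale (SE 0.15), or 7.45-fold, with the smallest adjusted p of the comparison (0.00927 from limma). AHSG, the fetuin-A gene, fell from -0.15, -0.12 and -0.30 to -2.58, -2.53 and -2.35, by 4.91-fold (SE 0.13 on the log2 scale, adjusted p = 0.0126). PROC, which encodes the anticoagulant protein C, fell from 1.46, 1.63 and 2.42 to -0.62, -0.31 and -0.79, by 5.31-fold (adjusted p = 0.0321), and its second probe fell by 2.21 on the log2 scale. All 3 proteins are made mainly in liver. HAO1, the glycolate oxidase of liver peroxisomes, fell from -1.14, -1.26 and -1.29 to -4.14, -3.84 and -3.38, by 5.88-fold (adjusted p = 0.0228). The others of the 10 were the pseudogene GUCY2EP (7.31-fold lower), the salivary cystatin CST1 (6.48-fold), the myelin-associated protein gene NCMAP (6.14-fold), the doublecortin domain gene DCDC1 (5.85-fold, although 1 of its 3 probes had a log2 fold change of 0.44), the endocytic adaptor PACSIN1 (4.82-fold) and LRRC36 (4.77-fold). Of these 10, 6 were called without OSK-A549-SN replicate 3, and the log2 fold changes of the 10 then lay between -2.96 and -2.26. GUCY2EP, CST1, NCMAP and PROC missed the threshold without it, with adjusted p-values of 0.0501, 0.0931, 0.0741 and 0.0725. With normexp background correction the sizes at low levels were smaller, with log2 fold changes of -1.12 for HAO1 and 1.28 for MARCHF4, and LRRC36 (-0.94) and ACTL8 (0.89) fell short of a 2-fold change.

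Genes detected on all parental arrays and on none of OSK-A549-SN were led by ANKRD34C-AS1, at least 7.83-fold lower, LGALS13, a galectin known from placenta, at least 6.69-fold lower, and KIAA1755, at least 6.01-fold lower. LGALS13 was at -1.60, -1.77 and -2.15 in parental A549 (adjusted p = 0.00927 from limma). PAX3, a transcription factor of neural crest and muscle, at -1.56, -2.24 and -3.19, was at least 4.78-fold lower, and GSTA5, at -2.57, -2.59 and -2.83, at least 3.78-fold lower. GSTA5 belongs to a family of near-identical glutathione transferases whose RNAs may share the probe. Of these 5, LGALS13 (adjusted p = 0.0208) and GSTA5 (0.0272) were called without OSK-A549-SN replicate 3, and ANKRD34C-AS1 (0.0618), KIAA1755 (0.103) and PAX3 (0.0557) were not.

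Acute phase proteins are plasma proteins that liver cells secrete in inflammation. Of 18 tested members 3 were called lower, TF, SERPINA1 and FGA, against 0.876% of all genes, and none higher. The median log2 fold change was -0.83, and -0.94 without replicate 3 of OSK-A549-SN, against 0.09 over all tested genes, and 12 of 18 were below 0. The summed linear level of the list was 19.4 to 21.8 over the parental arrays and 12.8 to 14.1 over OSK-A549-SN, without overlap. SERPINA1, alpha-1-antitrypsin, fell from -0.50, -0.38 and -0.66 to -2.49, -2.40 and -1.82, by 3.31-fold (SE 0.22 on the log2 scale, adjusted p = 0.0346 from limma). TF, transferrin, fell from -1.29, -1.54 and -2.43 to -4.02, -4.96 and -3.94 (adjusted p = 0.0469), with 2 of 3 OSK-A549-SN arrays detected. FGA, the fibrinogen alpha chain, fell from 1.66, 1.47 and 1.53 to 0.52, 0.05 and 0.12, by 2.49-fold (adjusted p = 0.0374), and a second of its 3 probes was also called lower. FGB and FGG, the other chains, gave -0.92 and -1.35 without overlap and were not called. SAA2 and SAA1, very close paralogs whose probes may share targets, had opposite signs at -2.94 and 1.59, and neither was called. HP and SERPINA3 were near 0, at -0.09 and 0.28. Without replicate 3, SERPINA1 was called (adjusted p = 0.0272), and TF (0.0863) and FGA (0.0768) were not. With normexp background correction in place of the processed signal the median of the list was -0.39.

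Because the leading decreases were plasma protein genes, 3 lists of liver-type genes were written after these values were seen. They are not closed families, and they hold genes that prompted them, such as ASGR1, AHSG and PROC. TF and FGA are also counted among the acute phase proteins. The counts of these lists are descriptions and support nothing by themselves. Of 25 tested coagulation factors and inhibitors, 6 were called lower, F5, F7, FGA, FGL1, PROC and APOH, against 0.876% of all genes, 1 was called higher, TFPI2, against 0.757%, and 21 were below 0 with a median of -0.79. With any 1 array left out that median lay between -0.82 and -0.53. F7, factor VII, fell from 0.04, 0.01 and 0.43 to -1.83, -1.58 and -1.47, and F5, factor V, from 0.25, -0.18 and -0.60 to -1.91, -1.75 and -1.64. APOH, beta-2-glycoprotein I, fell from 4.51, 4.56 and 4.89 to 2.56, 2.95 and 3.25. TFPI2, a protease inhibitor of the extracellular matrix, rose from 5.51, 5.36 and 5.54 to 6.68, 6.47 and 6.39. F12, by contrast, was at 4.99, 4.99 and 5.09 in parental A549 and at 4.98, 5.20 and 4.71 in OSK-A549-SN, and the groups overlapped.

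Of 31 other liver-made plasma proteins and receptors tested, 8 were called lower, ASGR1, AHSG, TF, SELENOP, CFHR3, ITIH2, ANG and RNASE4, against 0.876% of all genes, none was called higher, and the median was -0.32. RNASE4 and ANG, ribonucleases of adjacent genes with shared promoters, fell together, from 1.77, 1.64 and 1.64 to 0.12, 0.13 and -0.20 and from 3.92, 3.77 and 4.35 to 2.58, 2.77 and 2.52. SELENOP, which carries selenium in plasma, fell from -2.31, -1.72 and -1.77 to -3.60, -3.71 and -3.91. APOE gave -1.65 without overlap and was not called (adjusted p = 0.0565 from limma). The groups overlapped for TTR, RBP4, VTN and APOM.

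Of 17 tested liver-enriched transcription factors, 3 were called lower, PPARA, MLXIPL and ATOH8, against 0.876% of all genes, none was called higher, and 14 were below 0 with a median of -0.51. MLXIPL, the carbohydrate response factor ChREBP, fell from 2.07, 2.13 and 2.35 to 0.66, 1.00 and 0.58, by 1.44 on the log2 scale (SE 0.17, adjusted p = 0.0320 from limma). PPARA, the receptor that drives fatty acid oxidation, fell from -0.86, -0.77 and -0.55 to -1.70, -1.73 and -2.19. ATOH8 fell from -0.15, -0.06 and 0.46 to -1.82, -2.06 and -2.61. HNF4A, FOXA1, FOXA3, ONECUT1 and ONECUT2 had log2 fold changes between -1.19 and -0.51 with no overlap between the groups, and none of these 5 was called. In all, 10 of the 17 lay below without overlap and 1 above, against 2430 and 3320 of the 16774 tested genes. The groups overlapped for FOXA2, CEBPB, RXRA, NR1H4, NR5A2 and HNF4G.

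**Figure D4:**
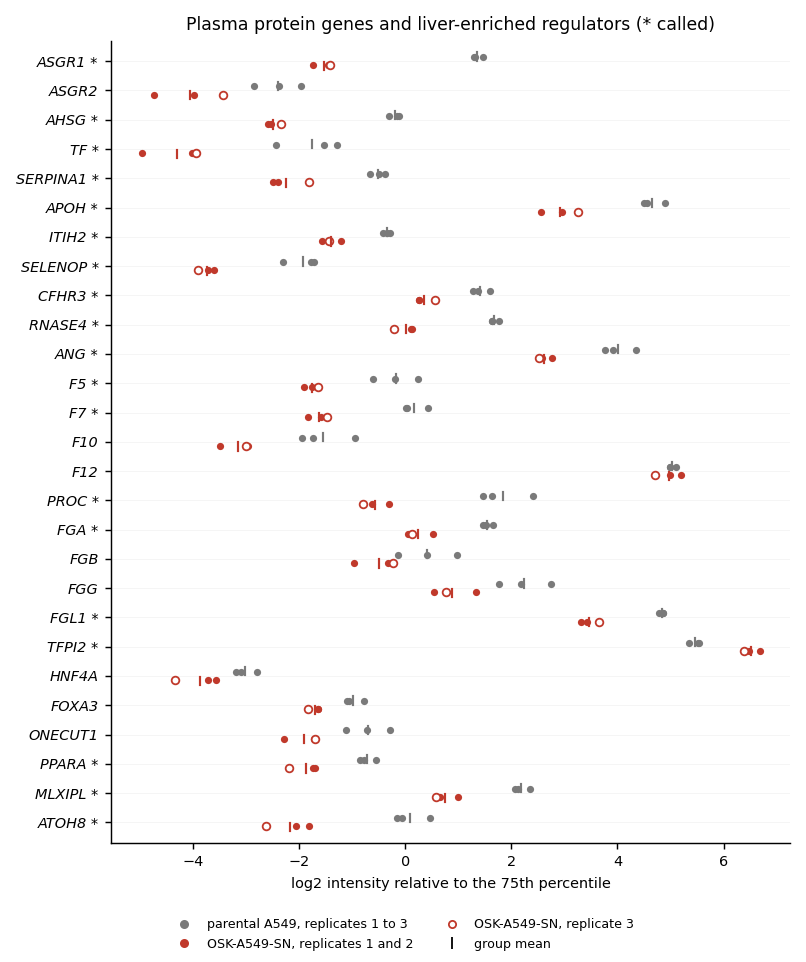
Relative level (log2 intensity minus the 75th percentile of the array) on each array for plasma protein genes and liver-enriched regulators, with an asterisk for called genes. Grey points are parental A549, filled red points OSK-A549-SN replicates 1 and 2, the open point replicate 3, and short lines group means. Most genes shown lie lower in OSK-A549-SN with no overlap, F12 overlaps, and TFPI2 lies higher. The genes were chosen after their values were seen, and most list members that overlapped are not shown. Over all tested members, 13 of 25 coagulation genes lay below without overlap and 2 above. The counts were 14 and 2 of 31 other liver-made proteins, and 10 and 1 of 17 transcription factors. Over all 16774 tested genes, 2430 lay below and 3320 above.

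Genes of DNA replication and entry into S phase had small positive differences. All 43 tested members had a log2 fold change above 0, with a median log2 fold change of 0.56 against 0.09 over all tested genes, and in 37 of them OSK-A549-SN lay entirely above parental A549, against 3320 of 16774 tested genes. UHRF1 and CDC6 were called higher, against 0.757% of all genes, and none was called lower. With any 1 array left out the median lay between 0.49 and 0.67, and it was 0.48 after quantile normalization. UHRF1, which recruits the maintenance DNA methyltransferase at replication forks, rose from 2.31, 1.76 and 1.85 to 3.06, 3.14 and 3.20, by 2.23-fold (SE 0.18 on the log2 scale, adjusted p = 0.0462 from limma), and its second probe gave 0.94. CDC6, a loading factor of the replicative helicase, rose from -2.18, -2.35 and -2.55 to -1.36, -1.13 and -1.50, by 2.04-fold (adjusted p = 0.0493). Neither was called without OSK-A549-SN replicate 3 (UHRF1 1.12, adjusted p = 0.102, and CDC6 1.11, adjusted p = 0.0810). CCNE2, RRM2, MCM10 and E2F8 had changes over 2-fold (log2 1.43, 1.29, 1.04 and 1.03) and were not called, while PCNA was at 0.03.

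Of 31 mitosis and G2/M genes none was called, and none passed an unadjusted p under 0.05 with a fold change over 2. Their median was 0.29, 28 were above 0 (59.1% of all tested genes were), and the groups overlapped in 19 of them. OSK-A549-SN lay entirely above in 9 and entirely below in 3, against 3320 and 2430 of the 16774 tested genes. MKI67, the gene of the Ki-67 antigen, gave 0.41, 0.00 and 0.29 at its 3 probes, with overlap at each. Parental A549 replicate 3 was the lowest array for TOP2A (3.16, 2.90 and 1.77 in parental A549, 3.43, 3.22 and 3.23 in OSK-A549-SN) and for TTK (0.56, 0.40 and -1.31 against 0.80, 0.60 and 0.64). Without any 1 array the median of the mitosis genes lay between 0.13 and 0.44.

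Because all replication genes had the same sign, their promoters were read from RefSeq (GRCh38.p14), from 250 bases before to 50 after each start, in which 36 of the 43 genes had an entry. The letters TTTGGCGC, TTTCCCGC, TTTCGCGC and TTTGCCGC, forms of the E2F site that is known from such promoters, were searched on both strands, and they can overlap each other. At least 1 of them was in 20 of the 36 promoters (55.6%), against 3.33% of all 27305 promoters in the table, 4.86% of those of the tested genes, 7.69% of the mitosis promoters, 2.91% of the genes called higher and 5.98% of those called lower. The letters TTTGAA of the CHR element were in 65.4% of the mitosis promoters and in 2.78% of the replication promoters (15.4% of all promoters and 10.9% of those of tested genes). CCAAT was in 80.8% and 61.1% of them (35.7% of all and 36.2% of tested). Stretches around the matches are shown 5′ to 3′ in the direction of the gene for the 2 called genes, for E2F1 and MCM6 with several matches, and for PCNA, which held a match and did not differ, with the matches in capitals.
UHRF1, chr19:4909462-4909519, plus strand: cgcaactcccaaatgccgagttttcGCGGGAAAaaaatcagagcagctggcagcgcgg
CDC6, chr17:40287861-40287898, plus strand: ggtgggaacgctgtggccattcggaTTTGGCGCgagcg
E2F1, chr20:33686373-33686443, minus strand: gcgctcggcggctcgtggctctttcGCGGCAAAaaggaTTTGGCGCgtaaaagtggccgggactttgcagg
MCM6, chr2:135876497-135876620, minus strand: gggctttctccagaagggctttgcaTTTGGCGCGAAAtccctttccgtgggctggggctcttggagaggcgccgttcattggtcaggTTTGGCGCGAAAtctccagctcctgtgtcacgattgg
PCNA, chr20:5126649-5126706, minus strand: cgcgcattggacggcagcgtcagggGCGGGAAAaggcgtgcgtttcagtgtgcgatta
The log2 fold changes of these 5 genes were 1.16 for UHRF1, 1.03 for CDC6, 0.54 for E2F1, 0.50 for MCM6 and 0.03 for PCNA, so genes with and without a measurable difference both held the letters.

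A site of acute phase factors was searched in the same way. The STAT letters TTCNNNGAA were in 4 of 12 acute phase promoters, those of FGA, CFB, ITIH4 and HAMP (33.3%, against 7.88% of all promoters and 6.67% of those of tested genes). The stretches of FGA, which fell, and of HAMP, which was at 0.10, show the match in both cases.
FGA, chr4:154590940-154590992, minus strand: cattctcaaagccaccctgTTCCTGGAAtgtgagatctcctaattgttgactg
HAMP, chr19:35282410-35282468, plus strand: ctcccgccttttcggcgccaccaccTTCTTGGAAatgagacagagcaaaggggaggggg

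Other lists were described in the same way. Of 25 genes of cholesterol and fatty acid synthesis, 24 were below 0 with a median of -0.31, and none was called or passed an unadjusted p under 0.05 with a fold change over 2. FDFT1, squalene synthase, had the largest change at -0.77 (adjusted p = 0.0940 from limma). Of 14 heat shock genes, 12 were above 0, against 59.1% of all tested genes, with a median of 0.43, and none was called, and HSP90AA1 was at 8.00, 7.93 and 7.23 in parental A549 and at 8.70, 8.61 and 8.59 in OSK-A549-SN. Its 3 probes gave 0.91 to 1.09, with adjusted p-values from 0.104 to 0.116. Of 26 collagens and laminins, COL5A1 and COL4A1 were called higher and COL4A3 lower, against 0.757% and 0.876% of all tested genes. COL5A1, a fibrillar collagen, rose from -2.22, -2.03 and -1.32 to -0.19, -0.19 and -0.37, and COL4A1, of basement membranes, from -0.98, -0.74 and -0.85 to 0.35, 0.18 and -0.08. COL4A3, a basement membrane chain of lung and kidney, fell from -2.05, -1.63 and -2.0 to -3.24, -4.18 and -4.16. Of 25 integrin and focal adhesion genes, ITGB3 and ITGA4 were called higher, against 0.757% of all tested genes, both at levels near background, with ITGA4 detected on 1 OSK-A549-SN array and no parental one.

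The lists of signalling and other genes that follow had 1 to 3 called members each, against 1.63% of all tested genes in either direction, and nothing is read from a single call in a list. ERBB3, a receptor of the EGFR family, fell from 1.97, 1.81 and 2.06 to 0.05, 0.20 and -0.09, by 3.72-fold (SE 0.15 on the log2 scale, adjusted p = 0.0200 from limma), and its 2 other probes gave -0.90 and -0.64. FOSL1, a transcription factor downstream of ERK, rose from -1.02, -0.88 and -1.25 to 0.19, -0.09 and -0.11. They were the called members among 26 genes of the EGFR family and ERK output, whose median was 0.09. SFRP1, a secreted Wnt antagonist, rose from -0.99, -0.67 and -0.56 to 0.70, 0.61 and 0.38, as the called member of 25 Wnt genes, and BMP4, a ligand of the BMP pathway, fell from 1.38, 1.53 and 1.59 to 0.52, 0.67 and 0.26, as that of 20 BMP and ID genes. TP53INP1, a p53 target, fell from -0.59, -0.48 and -0.50 to -1.85, -1.39 and -1.68, the called member of 24 CDK inhibitors and p53 targets. HLA-DMB, which helps load peptides on class II molecules, fell from 4.25, 4.47 and 5.01 to 1.92, 2.62 and 2.76, by 4.42-fold (adjusted p = 0.0427), as the called member of 18 antigen presentation genes. Among 16 neuronal genes, TUBB3, a neuronal tubulin, rose from 4.16, 4.01 and 4.21 to 5.19, 5.35 and 5.33 (adjusted p = 0.0307), NPTX1 rose as described, and SNAP25, of synaptic vesicle fusion, fell from 2.23, 2.47 and 2.63 to 1.41, 1.54 and 1.22. S100A3, a calcium-binding protein, rose from 1.73, 1.99 and 2.32 to 3.10, 3.42 and 3.17, as the called member of 14 S100 genes. Of the genes in this account of signalling, antigen presentation, neuronal and S100 lists, ERBB3 alone was called without OSK-A549-SN replicate 3 (log2 fold change -1.82, adjusted p = 0.0272), and for the others the adjusted p then lay between 0.0606 for TUBB3 and 0.0991 for S100A3.

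No member was called in the lists of proteases and their inhibitors, IL-6 family and STAT3, NF-kB targets, interferon-stimulated genes, NRF2 targets, AhR targets, aldehyde dehydrogenases, lung lineage, mucins, TGF-beta, Notch, immediate early genes, glycolysis, ATF4 targets, metallothioneins, IGF axis, HOX, BCL2 family and angiogenic factors, and 29 of their 368 tested members (7.88%) passed an unadjusted p under 0.05 with a fold change over 2, against 5.57% of all tested genes. IL6 was not detected on any of the 6 arrays. NKX2-1, the lineage factor of lung epithelium, was likewise not detected, and the 19 lung genes that were had a median of -0.08. IGFBP7, at -1.57, -1.29 and -0.11 in parental A549 and at 3.29, 2.49 and 0.55 in OSK-A549-SN, had one of the larger fitted changes among the uncalled genes (log2 fold change 3.10, SE 0.77, adjusted p = 0.101 from limma).

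**Figure D5:**
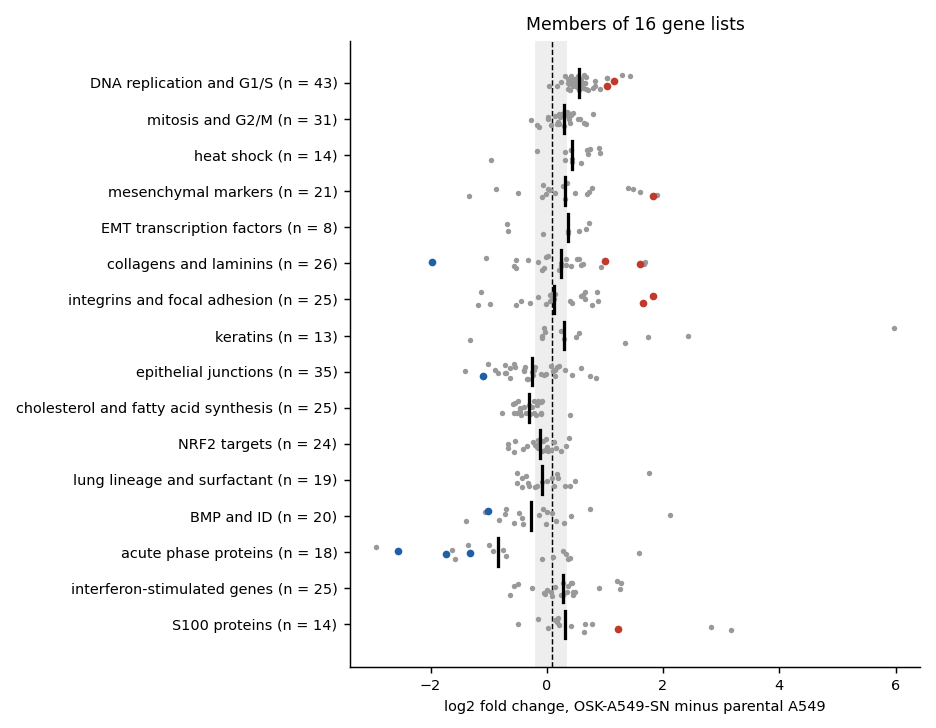
Log2 fold changes of the tested members of 16 gene lists, with 1 probe per gene, red for members called higher, blue for members called lower and grey for the others. Thick bars are list medians, the dashed line is the median of all 16774 tested genes (0.09) and the band their interquartile range (-0.19 to 0.33). The replication genes lie above 0 throughout and the acute phase genes spread furthest below it.

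OSK-A549-SN was also set beside OSK-A549-Colony, which came from the same dishes. Of 31746 probes tested between them on their 6 arrays limma called none, and 662 (2.09%) passed an unadjusted p under 0.05 with a fold change over 2. The smallest adjusted p, 0.0930, was shared by 28 probes, among them that of the cytokine IL6, which was detected on no OSK-A549-SN array and was at -2.36, -2.89 and -3.57 in OSK-A549-Colony, at least 3.12-fold higher. For the genes above, TF was at a mean of -4.30 in OSK-A549-SN and -1.98 in OSK-A549-Colony (log2 fold change -2.33, SE 0.44, adjusted p = 0.111), PADI3 gave 1.53 (adjusted p = 0.110) and AHSG -1.12 (adjusted p = 0.120). GSTA5, not detected on any OSK-A549-SN array, was at least 1.94-fold lower than in OSK-A549-Colony (adjusted p = 0.106). UHRF1 gave 0.13 (adjusted p = 0.431). Arrays of these 2 groups with the same number share a passage and deviated more alike than arrays of different numbers, and the fit took no account of it. With the replicate number as a block, an alternative added after the data were seen, limma again called none (smallest adjusted p 0.224, 727 probes at an unadjusted p under 0.05 with a fold change over 2). None of these differences passed the threshold, which does not show that the levels were the same.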

How the data were processed

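RNA of 9 samples was hybridised to 1-colour Agilent arrays, 3 each of parental A549, OSK-A549-SN and OSK-A549-Colony by sample title. The authors deposited the intensity of each spot as the background-corrected processed signal of the scanner software. They also deposited a log2 table of normalized values, which was used as an alternative. Here log2 of the processed signal minus the 75th percentile of each array was taken, spots of 1 probe were averaged, control spots and outlier spots were left out, and probes detected on at least 1 of 6 arrays were tested with limma 3.58.1 in R 4.3.3, by groups without a block. Calls needed a fold change over 2 and p under 0.05 after Benjamini-Hochberg adjustment. Genes with several probes took the brightest in the lists. The text names the genes the study stained or named, and the 10 largest called changes in each direction among genes detected on all 6 arrays. It also names the 5 largest bounds in each direction among called genes with a name, and up to 4 called members of each list. Genes named beyond this were chosen after their values were seen. The members and lists were chosen with earlier results of these data known. The fit was tested on simulated data. The number of arrays limits the precision, and 3 arrays against 3 cannot give an exact two-sided permutation p under 0.1. Alternatives were the background correction, scaling, filters, moderation, slide or replicate block, 9 arrays in 1 fit and each array left out. Same-numbered arrays of parental A549 and OSK-A549-SN did not deviate together (r = 0.149, -0.187 and -0.007), so these numbers were not taken as pairs. For OSK-A549-SN and OSK-A549-Colony r was 0.252, 0.0660 and 0.155 for the same numbers. It lay between -0.200 and 0.0325 for different numbers. Same-numbered arrays of these 2 groups therefore did deviate together, and the fit without a block took no account of it. Gene names and promoter sequences came from RefSeq. Results on some genes are not reported here.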

Additional observations from a re-analysis of the deposited data

How the results depend on the processing

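The count of called probes, 498 at the settings reported, depended on the processing. No called probe that was tested under a setting changed sign there. Where the values stayed the same or 1 array was left out, no change of sign was possible, because the groups did not overlap. Of the 498, 296 were tested when detection on all 6 arrays was required. The number was 429 when detection was required on all 3 arrays of a group, and at least 485 elsewhere. The count of called probes was 232 with normexp background correction (134 of them among the 498) and 215 with no detection filter. It was 980 when detection on all 3 arrays of a group was required and 187 with the slide as a block. With all 9 arrays in 1 fit it was 1085, and without moderation of the variances 5. With trend and robust moderation it was 920, and at an unadjusted p 1879. Quantile normalization (454), scaling to the median (527), detection on all 6 arrays (665) and the deposited log2 table (495) stayed within 1.5 times. With the replicate block no probe was called (0, smallest adjusted p 0.173), and the arrays were not paired by their numbers. Between OSK-A549-SN and OSK-A549-Colony, the replicate block left the count at 0. With 1 array left out the count ranged from 0 to 190. The share of calls that were higher was 45.6% as reported, 29.8% with detection on all 6 arrays, 74.9% with the slide as a block and 74.2% without OSK-A549-SN replicate 3, and 20.5% without parental A549 replicate 1. The causes were not tested. Of the medians of gene lists computed under alternatives, 839 moved by less than the spread between arrays and 61 by more. These counts include settings that leave a fold change as it is, such as the moderation, an unadjusted p or all 9 arrays in 1 fit. They therefore do not measure how stable the medians were. The median of the acute phase list was -0.83 as reported and -0.39 with normexp background correction. Probes near background carry the largest fitted changes and the least certain sizes.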

Other observations

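Small non-coding RNAs outside the fixed lists were read after their values were seen. SCARNA8 was at -0.80, -1.32 and -1.47 in parental A549 and at 0.29, 0.56 and 0.05 in OSK-A549-SN, and SCARNA13 at 1.49, 1.1 and 0.85 against 2.35, 2.83 and 2.51. SNORA13 rose by 1.25, SNORA33 by 1.17 and SNORA24 by 1.04 on the log2 scale, each detected on all 6 arrays, with adjusted p-values from limma of 0.0375, 0.0428 and 0.0428. SNORD36B and SNORD114-11 were also called higher but were each detected on 1 OSK-A549-SN array and no parental array. The arrays of the groups did not overlap in any of these genes.

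VDR, the vitamin D receptor, rose from -1.07, -1.28 and -1.55 to 0.48, 0.26 and -0.03 (log2 fold change 1.54, adjusted p = 0.0378 from limma). The probes of IL1RN, which encodes the interleukin-1 receptor antagonist, disagreed: 1 was called higher with detection on 2 OSK-A549-SN arrays and no parental array, and the other, detected on all 6, had a log2 fold change of 0.19 with overlapping groups. One called probe without a gene name, A_21_P0009030, was detected on no parental array and was at -0.28, -0.40 and -0.99 in OSK-A549-SN, at least 12.5-fold higher.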
